A study of Mus musculus with 8 samples.

Results

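Iron handling was followed through 10 genes of mouse liver, which were chosen by symbol from the 56691 genes of the deposited table. They were the hepcidin genes Hamp and Hamp2, the inducer Bmp6 and the SMAD target Id1, the transport genes Trf and Tfrc, the ferritin genes Fth1 and Ftl1, the exporter gene Slc40a1 and the heme-degrading enzyme gene Hmox1. All 10 symbols matched 1 row each, and all 10 passed the filter on low counts. Total liver RNA had been sequenced in 8 libraries of wild-type C57BL/6J mice, 4 from animals injected with the plasmid plive-Tet1 and 4 from animals injected with the control plasmid plive-Con. Both groups received the plasmid by hydrodynamic tail vein injection, which delivers DNA mainly to liver cells. The mice were 6 weeks old, were fed HFD-CDAA, a choline-deficient high-fat diet used to model steatohepatitis, over 4 weeks in both groups, and were killed after a short fast. No group without the diet or without injection was analysed here. Libraries are named as livers below. Whether every one came from its own mouse is not stated, and p-values therefore describe only the spread among the 8 libraries, which may be technical.

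Total counts per library ran between 15885113 and 19850800. The gene that the plasmid carries, Tet1, is an enzyme gene that acts on methylated DNA. It had 9, 8, 12 and 5 counts in the plive-Tet1 livers and 1, 9, 6 and 5 counts in the plive-Con livers. These few counts overlap and show no clear excess with plive-Tet1, and the reason was not tested. The treatment field of plive-Tet1 2, 3 and 4 names Tet2, Tet3 and Tet4, and grouping followed the titles. On the first principal component, plive-Con 4 lay at the end with a score of 35.5, and the next highest library, plive-Con 3, had a score of 9.999. Hepatocyte markers were abundant in every library, with Alb at a mean of 22883 FPKM in plive-Tet1 livers and 24380 FPKM in plive-Con livers. FPKM are fragment counts scaled by exonic length and by sequencing depth. In bulk RNA, fewer cells of a type and less RNA per cell cannot be told apart.

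Hepcidin is the peptide hormone by which the liver limits iron entry into plasma. It binds ferroportin, the only known cellular iron exporter, which is encoded by Slc40a1, and causes its degradation. Hepatocytes transcribe hepcidin when sinusoidal endothelial cells secrete BMP6 and BMP2, which signal through SMAD proteins, and when interleukin-6 activates STAT3. Transferrin, made by hepatocytes, carries iron in plasma, the transferrin receptor takes it up, and ferritin stores it inside cells. Iron regulatory proteins bind stem-loops called iron-responsive elements in several of these mRNAs. Binding near the 5′ end blocks translation, and binding in the 3′ part of the transferrin receptor mRNA slows its decay.

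The stretches upstream of Hamp and Hamp2 are shown because these neighbouring genes are near-identical while their levels differed widely in every liver. The 150 bases before each annotated start are given on the minus strand of build GRCm38.p6 from RefSeq, which is not the build of the counts, at chr7:30944030-30944179 for Hamp and at chr7:30924182-30924331 for Hamp2. Capitals mark GGCGCC, the core of a SMAD-binding BMP-responsive element, and TTCNNNGAA, a STAT-type palindrome, both searched on both strands.
Hamp: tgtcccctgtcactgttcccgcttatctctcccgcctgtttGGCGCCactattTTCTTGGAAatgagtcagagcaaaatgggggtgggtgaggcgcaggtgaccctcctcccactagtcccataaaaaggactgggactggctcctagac
Hamp2: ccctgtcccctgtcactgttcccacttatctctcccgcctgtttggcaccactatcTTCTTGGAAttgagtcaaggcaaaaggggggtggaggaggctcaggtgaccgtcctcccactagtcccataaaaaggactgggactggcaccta
Over 297 bases of the full windows compared without gaps, 276 were identical, or 92.9%. The Hamp window held 1 GGCGCC, starting 109 bases before the start, and 1 TTCNNNGAA, starting 97 bases before it. The Hamp2 window held the TTCNNNGAA at 94 bases and no GGCGCC. At the matching place it differed by G4A, counted from 1 at the 5′ end of GGCGCC. Whether this substitution bears on the level of Hamp2 was not tested. Among 32544 RefSeq windows of 300 bases, 11.9% held GGCGCC and 8.33% held TTCNNNGAA. Windows were found for 6 of the 10 genes, not for Trf, Slc40a1, Id1 or Hmox1. One of the windows of Tfrc held GGCGCC, and those of Fth1, Ftl1 and Bmp6 held neither motif.

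The iron-responsive elements are shown because they are what the ferritin, ferroportin and transferrin receptor mRNAs share. In the GENCODE M21 transcripts, a pattern was searched on the transcript strand that had a C, 5 bases, the loop CAGTGN and 5 bases pairing with the first 5, G with T allowed. Capitals mark the loop.
Fth1: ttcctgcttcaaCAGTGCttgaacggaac
Ftl1: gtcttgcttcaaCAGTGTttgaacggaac
Slc40a1: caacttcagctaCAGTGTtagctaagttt
Tfrc: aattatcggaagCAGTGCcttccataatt
Tfrc: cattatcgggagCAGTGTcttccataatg
Tfrc: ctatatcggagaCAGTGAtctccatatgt
Tfrc: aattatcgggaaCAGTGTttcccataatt
The pattern stood once in the 5′ UTR of Fth1, of Ftl1 and of Slc40a1, and 4 times in the 3′ UTR of Tfrc. The transcripts read for the other 6 genes, 1 per gene, did not hold it. Of 21901 protein-coding genes, 1.34% had a transcript with the pattern.

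The 10 genes spanned a wide range of abundance, and the order of their levels was much the same in every liver. By mean FPKM over the 8 livers, Trf ranked 7 of 14533 tested genes with 7304 ± 646 FPKM, Ftl1 ranked 15 with 4061 ± 425, Hamp ranked 43 with 1036 ± 219 and Fth1 ranked 56 with 803 ± 71.3 (SD, n = 8). Hmox1 had 66.4 ± 5.94 FPKM, Slc40a1 22.97 ± 3.36, Id1 11.6 ± 4.06, Hamp2 6.64 ± 1.71, Tfrc 4.10 ± 1.36 and Bmp6 1.22 ± 0.306. Each gene stood above the next in all 8 livers, except that Slc40a1 stood above Id1 in 7 and Hamp2 above Tfrc in 7. The place of Fth1 depends on the length used: with 1 GENCODE transcript per gene in place of the exonic length, a choice made after seeing the data, Fth1 averaged 2998 ± 266 (SD, n = 8) and lay above Hamp in all 8 livers, and the rest of the order was the same. Ranges over the livers overlapped between Hamp and Fth1, between Slc40a1 and Id1, between Id1 and Hamp2 and between Hamp2 and Tfrc. Together the 10 genes took between 2.99% and 3.67% of the counts of a library, and Trf alone took between 2.17% and 2.76%.

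**Figure D1:**
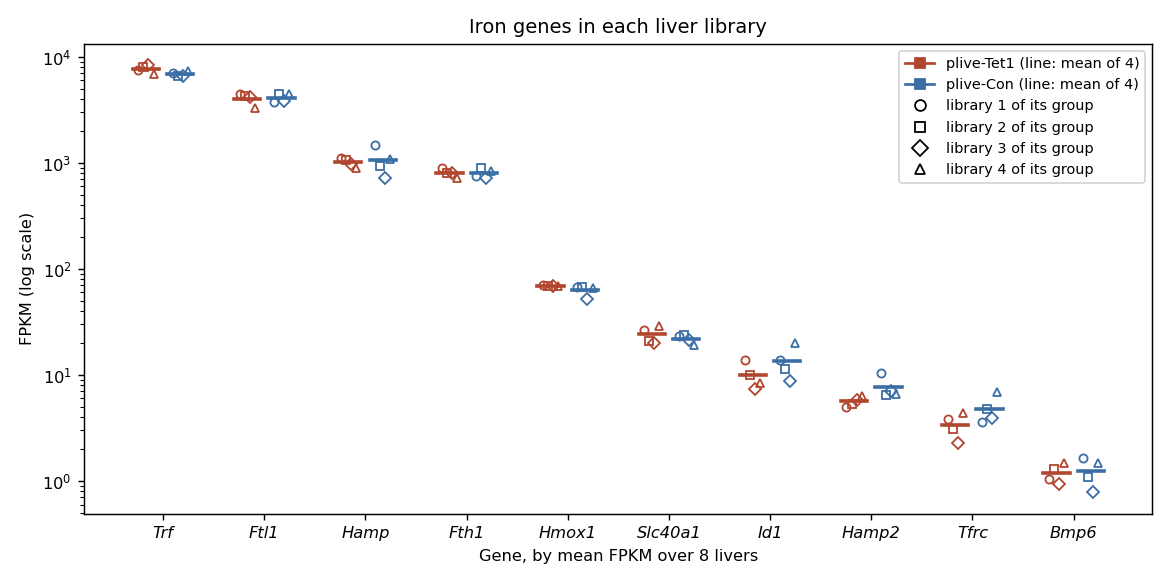
Level of each of the 10 iron genes in FPKM, on a log scale, in the 4 plive-Tet1 livers (red) and the 4 plive-Con livers (blue), with a line at each group's mean. The genes run from Trf at a mean of 7304 FPKM to Bmp6 at 1.22 FPKM, and the points of the groups interleave for 8 of them, while those of Hamp2 and Hmox1 do not overlap on this scale.

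The design sets plive-Tet1 livers against plive-Con livers, all on the same diet. None of the 10 iron genes passed the quasi-likelihood test of edgeR, with an adjusted p (Benjamini-Hochberg, threshold 0.05) of 1.00 for each, where 0% of the 14533 tested genes passed and 591 had an unadjusted p under 0.05. DESeq2 called 0 of the 10 as well, against 0.0523% of the genes it tested, or 11 genes. Tfrc and Hamp2 had an unadjusted edgeR p under 0.05, both with lower values in plive-Tet1 livers, while 4.07% of all tested genes had such a p and 2.16% had it with a lower value. Fold changes of 7 genes were below 0 and of 3 above it, and 48.0% of all tested genes had a value below 0. The median log2 fold change of the 10 was -0.08, against 0.01 over all tested genes. In FPKM the groups did not overlap for 2 of the 10, Hamp2 and Hmox1, against 2.56% of all tested genes. In CPM after TMM scaling they did not overlap for 0 of the 10, against 2.28%.

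**Figure D2:**
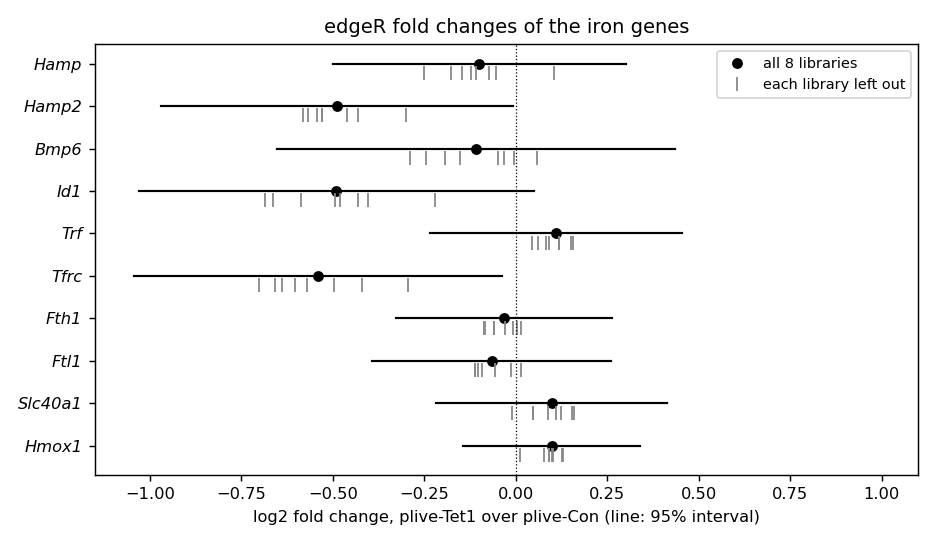
Difference of plive-Tet1 from plive-Con livers, as a log2 fold change by edgeR (point), of each iron gene with its 95% interval (line), and the value with each of the 8 libraries left out (grey ticks). The intervals of Tfrc, from -1.04 to -0.04, and of Hamp2, from -0.97 to -0.01, lie below 0 before adjustment, and the other 8 cross it.

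Hamp, which encodes hepcidin (ENSMUSG00000050440, GRCm39 chromosome 7, 30641793 to 30643457, minus strand), measured 1117, 1069, 983 and 899 FPKM in plive-Tet1 livers 1 to 4. In plive-Con livers 1 to 4 it measured 1478, 934, 721 and 1088 FPKM. The plive-Con livers held both the highest and the lowest value, and all plive-Tet1 livers lay between them. Its log2 fold change was -0.10 (95% interval -0.50 to 0.30) with an edgeR unadjusted p of 0.5996. Without plive-Con 1 it was 0.10 and without plive-Con 3 it was -0.25, so its sign rested on 1 library.

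Hamp2, the second hepcidin gene of the mouse, lies beside Hamp (ENSMUSG00000056978, chromosome 7, 30621797 to 30624106, minus strand). It measured 4.94, 5.35, 5.83 and 6.39 FPKM in plive-Tet1 livers and 10.52, 6.48, 7.01 and 6.60 FPKM in plive-Con livers. Every plive-Tet1 liver lay below every plive-Con liver on this scale, but in TMM-scaled CPM plive-Tet1 livers reached 3.75, above the lowest plive-Con liver at 3.61. Only 48 to 107 reads per library were assigned to it. The log2 fold change was -0.49 ± 0.22 (SE) with an edgeR unadjusted p of 0.0472 and an adjusted p of 1.00, and it was -0.30 without plive-Con 1.

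Reads of the hepcidin genes may be split wrongly, since a GENCODE transcript of each was identical to the other at 388 of 410 aligned bases. Hamp2 took between 0.625% and 1.36% of the reads of the pair. Per exon length, Hamp exceeded Hamp2 by 226, 200, 169 and 141 times in plive-Tet1 livers, and by 140, 144, 103 and 165 times in plive-Con livers. The mean ratio was 184 ± 37.2 with plive-Tet1 and 138 ± 25.8 with plive-Con (SD, n = 4 each). An exact two-sided permutation test of its log2 gave p = 0.114, where the smallest possible value over 70 assignments is 0.0286. The groups overlapped, with plive-Tet1 4 level with plive-Con 1. With the counts of both genes summed, the log2 fold change was -0.10, with an edgeR adjusted p of 1.00.

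Bmp6 encodes the ligand that sinusoidal endothelial cells release when liver iron is high (ENSMUSG00000039004, chromosome 13, 38529083 to 38684278, plus strand). It measured 1.05, 1.31, 0.94 and 1.49 FPKM in plive-Tet1 livers and 1.66, 1.08, 0.78 and 1.47 FPKM in plive-Con livers, from 56 to 115 reads per library. The lowest and the highest value were again both in plive-Con livers. By edgeR the log2 fold change was -0.11 (95% interval -0.65 to 0.44). Txndc5, which overlaps Bmp6 on the other strand and had 3470 to 5301 reads, limits this value, because the sources used here do not give the strand setting with which reads were counted. Of 8 sinusoidal endothelial markers, 7 had a lower value with plive-Tet1, none passed, and the median log2 fold change was -0.28. Gpr182 had -0.40 ± 0.17 (SE) and Kdr, a receptor for VEGF, -0.44 ± 0.19, with edgeR unadjusted p of 0.0329 and 0.0374. The markers had a summed level of 40.3 to 61.2 FPKM in plive-Tet1 livers and 46.0 to 70.4 FPKM in plive-Con livers. The part of these cells in the Bmp6 level was not tested.

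Id1, a transcriptional regulator and a standard readout of BMP-SMAD signalling in hepatocytes (ENSMUSG00000042745, chromosome 2, 152578171 to 152579330, plus strand), measured 13.7, 9.96, 7.43 and 8.47 FPKM in plive-Tet1 livers. In plive-Con livers it measured 13.7, 11.3, 8.70 and 19.9 FPKM. The groups overlapped, and plive-Con 4 stood highest. Id1 had a log2 fold change of -0.49 ± 0.25 (SE) with an edgeR unadjusted p of 0.0713 and an adjusted p of 1.00. Without plive-Con 4 it was -0.22.

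Across the 8 livers, Hamp was set against Id1, Bmp6, Hamp2 and Tfrc, 4 pairs in all, on log2(FPKM + 0.5). Hamp and Id1 had a Pearson r of 0.56 (exact permutation p = 0.149, adjusted 0.298) and a Spearman rho of 0.71 (exact permutation p = 0.0576, adjusted 0.230). Their r was 0.63 without plive-Con 1 and plive-Con 3, the livers farthest from the median of Hamp, and 0.63 after centring each group. Hamp and Bmp6 had a Pearson r of 0.70 (exact permutation p = 0.0448, adjusted 0.179) and a Spearman rho of 0.45 (exact permutation p = 0.267, adjusted 0.535). That relation rested on the same pair of livers, since r was -0.05 without them. Without plive-Tet1 4, r was 0.87 and passed the adjustment (exact permutation, adjusted p = 0.0365). Leaving out any other single library gave no pass, and without plive-Con 3 r was 0.49 (exact permutation, adjusted p = 0.373). The adjustment covered the 4 pairs, not the choice of the library left out. Hamp and Hamp2 had an r of 0.39 (exact permutation p = 0.326, adjusted 0.435) and a rho of -0.07 (exact permutation p = 0.882, adjusted 0.882), and Hamp and Tfrc an r of -0.04 (exact permutation p = 0.924, adjusted 0.924) and a rho of -0.24 (exact permutation p = 0.582, adjusted 0.776). Without the same pair of livers these r values were -0.60 and 0.08, and without plive-Con 1 alone they were -0.72 and 0.07. Over all 8 livers, no relation passed the adjustment.

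**Figure D3:**
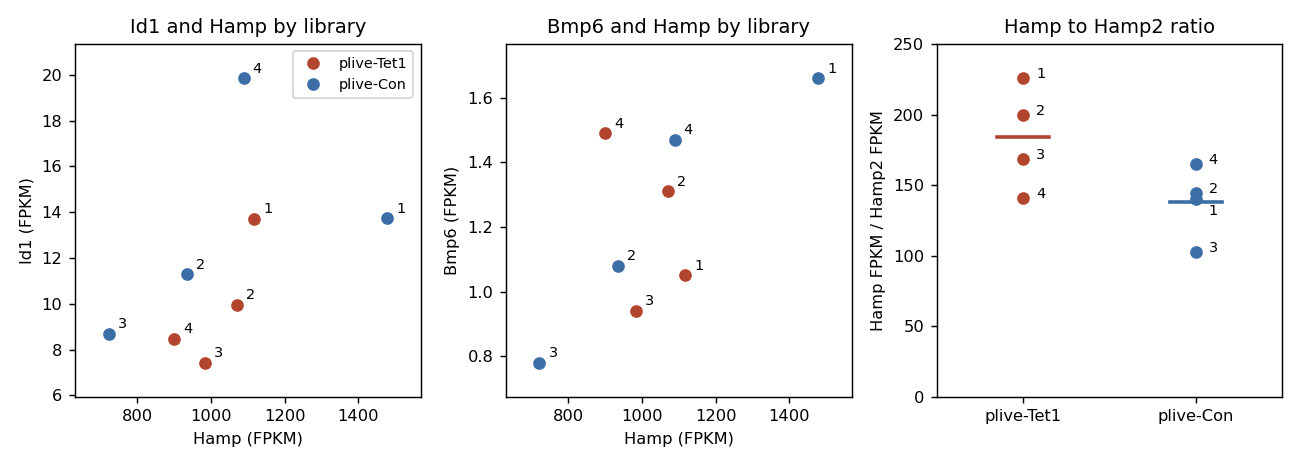
Left and middle, Id1 and Bmp6 against Hamp in FPKM in each liver, numbered by library, with plive-Tet1 in red and plive-Con in blue. Right, the ratio of Hamp to Hamp2 FPKM in each liver with a line at the group mean, 184 with plive-Tet1 and 138 with plive-Con. plive-Con 1 and plive-Con 3 hold the ends of the Hamp axis in both scatter plots.

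The genes whose pattern over the 8 livers was most like that of Hamp were Nlrc3, Tpm3, Arhgdib, Kazald1 and Dpcd. Their centred log2 CPM differed from that of Hamp by 0.07 to 0.11 on average, while Hamp itself deviated from its mean by 0.21. The nearest of the other 9 iron genes was Hmox1, at rank 238 with a mean difference of 0.16. For Id1 the nearest were D730003I15Rik, Gm9774, Lrrc1, Gins1 and Rbm3-ps, at 0.12 to 0.15, and the nearest iron gene was Tfrc, at rank 658 with 0.29.

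Trf, which encodes transferrin, the iron carrier of plasma (ENSMUSG00000032554, chromosome 9, 103081200 to 103107643, minus strand), measured 7584, 8041, 8302 and 6898 FPKM in plive-Tet1 livers. In plive-Con livers it measured 7072, 6600, 6544 and 7387 FPKM. Plive-Tet1 livers 1, 2 and 3 lay above every plive-Con liver, while plive-Tet1 4 lay within their range. The log2 fold change was 0.11 (95% interval -0.23 to 0.45) with an edgeR unadjusted p of 0.503, and it was 0.04 without plive-Tet1 3 and 0.06 without plive-Con 2.

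Tfrc encodes transferrin receptor 1, which takes up iron-loaded transferrin and whose mRNA carries the 3′ stem-loops shown above (ENSMUSG00000022797, chromosome 16, 32427738 to 32451612, plus strand). It measured 3.85, 3.08, 2.30 and 4.38 FPKM in plive-Tet1 livers and 3.58, 4.78, 3.90 and 6.90 FPKM in plive-Con livers. The groups overlapped, plive-Con 4 was highest, and plive-Tet1 2 and 3 lay below every plive-Con liver. The log2 fold change of -0.54 ± 0.23 (SE) was the farthest from 0 of the 10, with an edgeR unadjusted p of 0.0371 and an adjusted p of 1.00. Without plive-Con 4 it was -0.29. Tfrc varied more than most genes, with a coefficient of variation of 33.3% over the 8 livers, where the median of all tested genes was 18.2%.

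Ferritin is a shell of heavy and light chains, of which the heavy chain oxidises iron. Fth1, the heavy chain gene (ENSMUSG00000024661, chromosome 19, 9957962 to 9962462, plus strand), measured 901, 808, 805 and 713 FPKM in plive-Tet1 livers and 756, 889, 717 and 835 FPKM in plive-Con livers. Ftl1, the light chain gene (ENSMUSG00000050708, chromosome 7, 45107368 to 45109308, minus strand), measured 4416, 4287, 4177 and 3268 FPKM in plive-Tet1 livers and 3708, 4411, 3801 and 4425 FPKM in plive-Con livers. For both genes plive-Tet1 4 was the lowest of all 8 livers and the other values interleaved. The log2 fold changes were -0.03 for Fth1 (95% interval -0.33 to 0.26), whose sign flipped to 0.01 when libraries were scaled by their totals, and -0.07 for Ftl1 (95% interval -0.39 to 0.26). The pseudogene Ftl1-ps1 drew 545 to 759 reads per library, against 86706 to 110362 for Ftl1.

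The ratio of the ferritin chains stayed between 4.58 and 5.31 in all livers. Per exon length, Ftl1 exceeded Fth1 by 4.90, 5.31, 5.19 and 4.58 times in plive-Tet1 livers, and by 4.90, 4.96, 5.30 and 5.30 times in plive-Con livers. The mean was 4.99 ± 0.322 with plive-Tet1 and 5.12 ± 0.214 with plive-Con (SD, n = 4 each). The log2 ratio of Fth1 to Ftl1 differed by 0.04 between the groups, with an exact two-sided permutation p of 0.514. The exonic length of Fth1 in the table, 3469 bases, is longer than the GENCODE transcript of 929 bases that holds the stem-loop, and for Ftl1 these are 1340 and 968 bases. With the transcript lengths, the ratio of Ftl1 to Fth1 averaged 1.85 ± 0.119 with plive-Tet1 and 1.897 ± 0.0795 with plive-Con.

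Slc40a1, which encodes the iron exporter ferroportin (ENSMUSG00000025993, chromosome 1, 45947228 to 45965683, minus strand), measured 26.8, 21.1, 19.8 and 28.7 FPKM in plive-Tet1 livers. In plive-Con livers it measured 23.2, 23.8, 21.5 and 19.0 FPKM. The plive-Tet1 livers spread around the plive-Con values, with plive-Tet1 1 and 4 above all of them. By edgeR the log2 fold change was 0.10 (95% interval -0.22 to 0.41), and it was -0.01 without plive-Tet1 4. In the liver this gene is also abundant in Kupffer cells, and plive-Tet1 4 had the highest summed level of 8 macrophage markers, at 589 FPKM. The sum was 420 to 452 FPKM in the other plive-Tet1 livers and 424 to 499 FPKM in plive-Con livers. It was 499 FPKM in plive-Con 4, the lowest liver for Slc40a1, and 443 FPKM in plive-Tet1 1. Within the sum, the marker Marco alone ranged from 33.8 to 133 FPKM in plive-Tet1 livers. In plive-Tet1 4, Adgre1 was the highest of all livers at 25.4 FPKM. Clec4f was 64.5 FPKM there, within the plive-Con range of 61.3 to 87.8. The part of macrophages in the Slc40a1 level was not tested.

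Hmox1, the inducible heme oxygenase that frees iron from heme (ENSMUSG00000005413, chromosome 8, 75820249 to 75827217, plus strand), measured 71.0, 69.7, 68.6 and 69.1 FPKM in plive-Tet1 livers and 67.1, 67.5, 52.3 and 65.6 FPKM in plive-Con livers. The plive-Tet1 livers were closely alike, with a coefficient of variation of 1.46%, and lay above all plive-Con livers on this scale, while in TMM-scaled CPM the ranges overlapped, at 116.6 to 122 with plive-Tet1 and 97.4 to 119 with plive-Con. Hmox1 averaged 69.6 ± 1.02 FPKM with plive-Tet1 and 63.1 ± 7.28 FPKM with plive-Con (SD, n = 4 each). Hmox1 had a log2 fold change of 0.10 (95% interval -0.14 to 0.34), and it was 0.01 without plive-Con 3, the low liver.

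Iron and heme metabolism more widely was taken as 10 lists, which include the 10 iron genes, and none of their tested genes passed the edgeR test in either direction. Of 14 genes of the receptor and SMAD arm that induces hepcidin, 10 had a higher and 4 a lower value, and the median was 0.06 (log2 fold change). Those with the smallest p were Smad4, the common SMAD partner (0.15 ± 0.11, SE), Bmp2, the second endothelial ligand (-0.26 ± 0.20), and Neo1, a hemojuvelin partner (0.16 ± 0.15). Bmp2 had -0.47 without plive-Tet1 4 and -0.15 without plive-Tet1 3, and Neo1 ranged from 0.06 without plive-Tet1 3 to 0.24 without plive-Tet1 1. Of 8 negative regulators, 6 were tested, 2 with a higher and 4 with a lower value, and the median was -0.07. Fgl1, a hepatocyte-secreted antagonist of BMP signalling, had -0.23 ± 0.29 (SE), with -0.62 without plive-Tet1 1 and -0.07 without plive-Tet1 3. Bambi, a decoy receptor, had 0.14 ± 0.21, and 0.0036 without plive-Con 3. Tmprss6, the protease that cuts hemojuvelin, measured 134 ± 19.0 FPKM with plive-Tet1 and 121 ± 16.7 FPKM with plive-Con (SD, n = 4 each).

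Each of the 9 SMAD target genes had a lower edgeR value with plive-Tet1, and the median was -0.15. Among the 9, Atoh8 had a higher mean FPKM with plive-Tet1, at 11.035 against 10.8475 with plive-Con. Of all tested genes, 48.0% had an edgeR value below 0. The 8 hepatocyte markers were likewise all lower, with a median of -0.16, as were 7 of the 8 sinusoidal endothelial markers, with a median of -0.28, and their part in the SMAD target values was not tested. Hamp, Hamp2 and Id1 are 3 of these 9, and the members of the list share the same libraries and the same pathway, so they are not separate pieces of evidence. Id3, a relative of Id1, measured 26.4, 31.0, 28.4 and 18.8 FPKM in plive-Tet1 livers and 35.3, 37.2, 21.5 and 34.0 FPKM in plive-Con livers. Plive-Con 3 lay within the plive-Tet1 range and the other plive-Con livers above it. Its log2 fold change was -0.33 ± 0.17 (SE), with an edgeR adjusted p of 1.00, and it was -0.21 without plive-Tet1 4. The inhibitory SMAD genes Smad6 and Smad7 had -0.09 and -0.15, but -0.0048 for Smad6 without plive-Con 1 and -0.0026 for Smad7 without plive-Con 2.

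In the inflammatory arm, 11 of 12 genes were tested, 6 with a higher and 5 with a lower value, and a median of 0.10. Il6, which encodes the inducing cytokine, had 0 to 4 counts and was not tested. Socs3, the feedback inhibitor that STAT3 induces, had -0.53 ± 0.33 (SE), and -0.13 without plive-Con 2, which stood highest at 11.7 FPKM. Without plive-Tet1 3, Socs3 had -0.87. The acute phase genes Lcn2 and Saa1 had 0.46 ± 0.34 and 0.36 ± 0.36. Without plive-Tet1 1, Lcn2 had -0.08 and Saa1 -0.29.

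Among 13 uptake and traffic genes, 12 were tested, with 7 higher values, 5 lower values and a median of 0.11. Steap3, a reductase that prepares iron for exit from endosomes, measured 8.32, 7.77, 7.35 and 6.42 FPKM in plive-Tet1 livers and 5.90, 5.69, 5.95 and 5.99 FPKM in plive-Con livers. In FPKM its groups did not overlap, which held for 2.56% of all tested genes. Steap3 was named because its p was the smallest of this list. Its log2 fold change was 0.29 ± 0.12 (SE), with an edgeR unadjusted p of 0.0268 and an adjusted p of 1.00. Slc11a2, the iron transporter DMT1, had 0.23 ± 0.13 and Steap4, a metal reductase, 0.26 ± 0.18. Slc11a2 had 0.13 without plive-Tet1 2, and Steap4 had 0.09 without plive-Con 4, the lowest liver at 50.5 FPKM. Of 8 storage and export genes, 3 had a higher and 5 a lower value, with a median of -0.03. Ncoa4, the receptor for ferritin breakdown, had 0.23 ± 0.18, and Cp, which encodes ceruloplasmin, had 0.20 ± 0.17. Each rested on 1 library, with 0.04 for Ncoa4 without plive-Tet1 4 and 0.02 for Cp without plive-Tet1 1. The genes of the iron regulatory proteins, Aco1 and Ireb2, had -0.03 ± 0.15 and -0.26 ± 0.25, and Fbxl5, which marks IRP2 for degradation, had 0.06 ± 0.13. With single libraries left out, Ireb2 ranged from -0.51 without plive-Tet1 4 to -0.13 without plive-Tet1 2, and Aco1 and Fbxl5 took both signs.

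In heme scavenging and breakdown, 5 of 11 genes had a higher and 6 a lower value, with a median of -0.01. Cd163, the macrophage receptor for hemoglobin bound to haptoglobin, stood farthest from 0. Cd163 measured 0.79 to 1.62 FPKM in plive-Tet1 livers and 1.62 to 4.67 FPKM in plive-Con livers. Every plive-Con liver was at or above every plive-Tet1 liver, and plive-Tet1 3 and plive-Con 1 were level. The log2 fold change was -1.27 ± 0.34 (SE), with an edgeR unadjusted p of 0.00256 and an adjusted p of 1.00, and it ranged from -1.47 to -0.94 with single libraries left out. Without the filter on low counts, edgeR gave it an adjusted p of 3.86e-08, where its SE was 0.19. No other setting brought its adjusted p under 0.05. DESeq2 gave an adjusted p of 0.132, limma voom 0.998 and edgeR with the replicate number as a block 0.0797. Of 8 macrophage markers, 4 had a higher and 4 a lower value, among them Adgre1 with 0.40, or 0.25 without plive-Tet1 4, and Clec4f with -0.36. Blvrb, a biliverdin reductase, had -0.33 ± 0.15, and Bach1, the heme-sensing repressor of Hmox1, had -0.20 ± 0.14, or -0.13 without plive-Tet1 2.

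Red cell genes, whose RNA can enter liver samples with blood, had a summed level of 204 to 332 FPKM in plive-Tet1 livers and 277 to 505 FPKM in plive-Con livers. Of the 5 that were tested, 4, all globins, had a lower value. Alas2, the other tested gene, had a higher value, with a log2 fold change of 0.26 ± 0.20 (SE). It averaged 26.5 FPKM with plive-Tet1 and 21.3 FPKM with plive-Con. Hba-a1 had -0.96 ± 0.21 and Hba-a2, its near-identical copy, -1.20 ± 0.29, with edgeR adjusted p of 0.892 and 0.987, and DESeq2 adjusted p of 0.0238 and 0.0493. Without the filter on low counts, edgeR gave them adjusted p of 3.58e-07 and 1.90e-07. The erythroid marker Slc4a1 had 0 to 8 counts per library and was not tested. The part of blood in the levels of Tfrc, Hmox1 and Cd163 was not tested.

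Heme synthesis had 2 higher and 7 lower edgeR values among 9 genes, where 48.0% of all tested genes had a value below 0. Among the 7, Urod (25.8 against 25.5) and Fech (12.8 against 12.6) had a higher mean FPKM with plive-Tet1 than with plive-Con. Those with the smallest p were Alad (-0.27 ± 0.15, SE), Uros (0.23 ± 0.14) and Ppox (-0.23 ± 0.17). Alad had -0.44 without plive-Tet1 3, Uros 0.13 without plive-Con 4, and Ppox -0.38 without plive-Tet1 3 and -0.12 without plive-Con 2. Of 12 genes of mitochondrial iron and iron-sulfur clusters, 11 were tested, 10 had a lower edgeR value and the median was -0.10. Among the 10, Hscb had a higher mean FPKM with plive-Tet1, at 4.355 against 4.3125 with plive-Con. Slc25a37, the mitochondrial iron importer mitoferrin 1, measured 7.27, 7.88, 8.42 and 6.70 FPKM in plive-Tet1 livers and 9.35, 10.2, 8.61 and 7.74 FPKM in plive-Con livers. Only plive-Con 4 overlapped the plive-Tet1 range. Its log2 fold change was -0.29 ± 0.12 with an edgeR unadjusted p of 0.0285 and an adjusted p of 1.00. Glrx5 had -0.30 ± 0.16 and Isca2 -0.19 ± 0.11, both genes of cluster assembly, and without plive-Con 4 they had -0.15 and -0.11. The 6 stellate cell markers had 3 on each side.

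**Figure D4:**
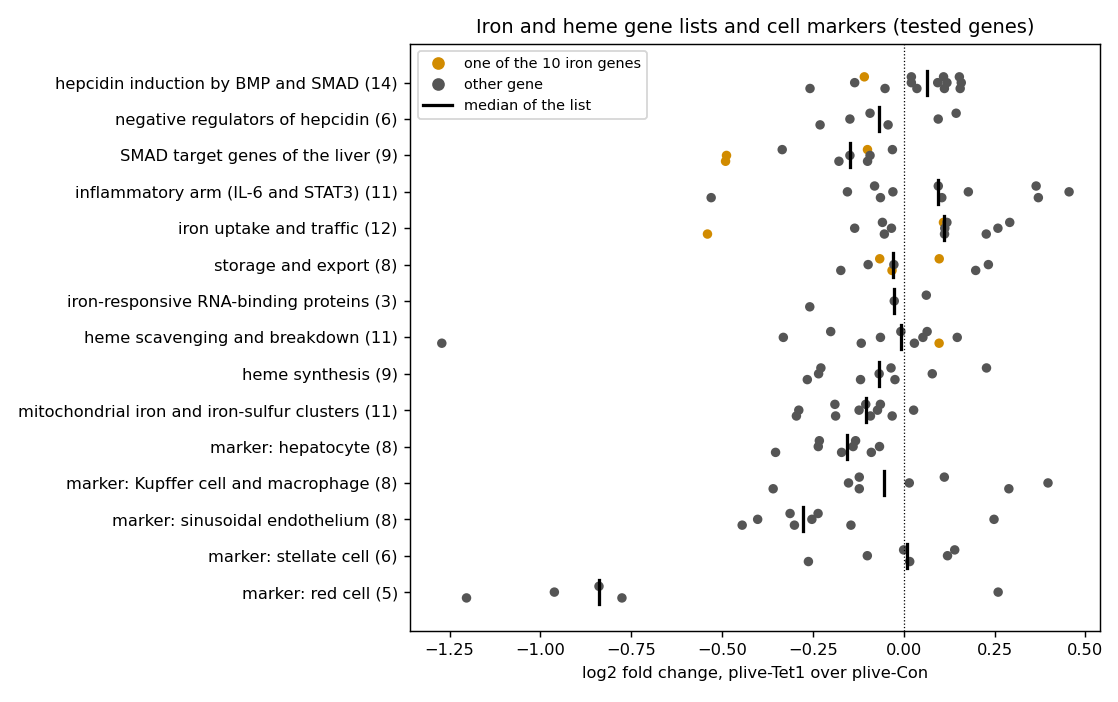
Difference of plive-Tet1 from plive-Con livers, as a log2 fold change, for every tested gene in the 10 iron and heme lists and the 5 cell marker lists, with the number of tested genes in brackets. The 10 iron genes are in orange, other genes in grey, and the black bar is the list's median, which lies at -0.15 for SMAD targets and at -0.84 for red cell genes; no gene of these lists passed the edgeR test.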

How the data were processed

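Total RNA of mouse liver was sequenced in 8 paired-end libraries, per the labels' protocols. The tools were cutadapt 1.9.1, HISAT2 2.2.1 and HTSeq 0.6.1 on GRCm39, per the submitters' processing notes. The sources used here give no annotation release or strand setting. The deposited table gives raw read counts per gene, per the file headers, and FPKM values, per the file headers; the deposited FPKM differed from count over exonic length and library total by at most 0.00500. Groups came from the sample titles.

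Counts were tested with edgeR 4.0.16 (filterByExpr, TMM, quasi-likelihood, group only, two-sided, Benjamini-Hochberg over 14533 genes, threshold 0.05) in R 4.3.3; the fit was tested on simulated data. SE and 95% intervals came from the quasi-likelihood statistic. The hepcidin and ferritin ratios had exact permutation tests over 70 assignments. Correlations had exact permutation tests over the pairings of the 8 libraries. DESeq2 1.42.0 and limma 3.58.1 gave alternatives. Libraries of a group differed pairwise by more than sampling noise, with chi-square over degrees of freedom of 12.9 to 77.6. Per-library levels are FPKM; CPM are counts scaled by TMM. The members and lists were chosen with earlier results of these data known. Named genes were the 10 members, up to 3 further genes per list with the smallest p and up to 2 per marker list, plus the 5 genes nearest to Hamp and to Id1. Tmprss6, Alb, Atoh8, Alas2, Urod, Fech and Hscb were added to the text after seeing their values. Upstream sequences came from RefSeq (GRCm38.p6) and transcripts from GENCODE M21. CACGTG was also searched, was held by 7.17% of the windows and stood once in the window of Bmp6.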

Additional observations from a re-analysis of the deposited data

Results flagged for a closer look

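In 2 of 24 groups of 4 values, for the 10 genes and the hepcidin and ferritin ratios, a single liver stood far from the other 3 by Dixon's criterion, and chance flags about 1 in 20 groups. Hamp2 measured 10.52 FPKM in plive-Con 1, against 6.48 to 7.01 FPKM in the other plive-Con livers. Hmox1 measured 52.25 FPKM in plive-Con 3, against 65.6 to 67.5 FPKM in the other plive-Con livers.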

How the results depend on the processing

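Over the alternatives that kept all 8 libraries, 88 of 90 fold changes of the 10 iron genes kept their sign and side of the threshold. The exceptions were Fth1, at 0.0135 with library totals and 0.0136 with limma on log2(FPKM + 0.5). Aco1 likewise had 0.0264 and 0.0208. The number of genes called was 0, but 11 with DESeq2 and 132 by edgeR without a filter on low counts, of which 119 were among the 14533 genes that the filter keeps, and 0 of the 10 iron genes were called in any setting. The cause was not tested. With single libraries left out, 0 genes were called, and the log2 fold change ranged from -0.25 to 0.10 for Hamp and -0.25 to 0.10 for Hamp and Hamp2 summed. It ranged from -0.0883 to 0.0134 for Fth1, -0.11 to 0.0143 for Ftl1, -0.00987 to 0.16 for Slc40a1 and -0.29 to 0.0565 for Bmp6. Other ranges were -0.0766 to 0.68 for Lcn2, -0.29 to 0.54 for Saa1, -0.0272 to 0.13 for Fbxl5 and -0.15 to 0.0604 for Aco1. The log2 Fth1 to Ftl1 difference ranged from -0.00430 to 0.0660. Transcript lengths, an alternative chosen after seeing the data, left it at 0.04. That outcome was fixed in advance, because the lengths scale each gene by the same factor in every library, and it is no check. Pearson r ranged from 0.49 to 0.87 for Hamp and Bmp6, from -0.72 to 0.66 for Hamp and Hamp2 and from -0.20 to 0.0656 for Hamp and Tfrc. The replicate numbers did not pair the libraries: deviations of same-numbered libraries correlated at -0.04 to 0.07, and 1 of 8 libraries correlated best with their own number. With that number as a block, edgeR called 0 genes and 616 had an unadjusted p under 0.05, against 591. Bmp6, Id1, Tfrc and Hamp2, the iron genes with the fewest reads, had the widest intervals.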
